A study of Homo sapiens with 6 samples.

Results

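The ribosomal protein genes were followed in the F36P cell line, a long-established human line from an acute erythroid leukaemia, across 6 libraries of poly(A) RNA. Members were taken by name: symbols of the form RPL or RPS with a number and at most an A, X or L and a further digit, together with RPLP0, RPLP1, RPLP2 and RPSA. This gave 80 of the 14821 genes in the table, 48 of the large and 32 of the small subunit, and all 80 passed the filter on low counts among 14203 tested genes. In 3 libraries the cells carried the retroviral construct MSCV-PIG-AM-ERG, labelled ERG overexpression, and in the other 3 the empty retrovirus MSCV-PIG. Both groups had been kept in puromycin at 1 µg/ml for 4 days. The labels call the replicates biological and give no culture or transduction of origin, so the tests rest on the spread among these samples alone. The stated purpose of the series was to learn how the ETS transcription factor ERG holds back red cell differentiation.

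A ribosome has a small subunit, which reads the messenger RNA, and a large subunit, which joins amino acids, and each is a ribosomal RNA core covered by ribosomal proteins. Most of these proteins are needed in equal numbers, and their messenger RNAs usually begin with a C followed by a run of C and T. This terminal oligopyrimidine (TOP) tract is the element through which mTOR and LARP1 regulate their translation. Red cell precursors are known for their sensitivity to ribosome supply: loss of 1 copy of genes such as RPS19, RPL5 or RPL11 causes Diamond-Blackfan anaemia, and loss of RPS14 contributes to the anaemia of the 5q- syndrome.

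Library totals ran from 10257141 to 14803031 counts. Levels are given as CPM, the counts scaled to the library total after TMM normalisation. The ERG gene had 97.4, 103 and 104 CPM in ERG replicates 1 to 3 and 28.1, 14.6 and 22.4 CPM in vector replicates 1 to 3. Of 10 erythroid markers 4 were called lower with ERG (HBG2, HBG1, EPOR and KLF1), and 10 of 10 with a term for the library sets described next. With ERG 1 and ERG 2 summed as 1 library, 0 genes of the whole table were called by edgeR. Of the markers of other cell types, 1 of 6 lymphoid (CD79A) and 2 of 6 stromal and epithelial genes (COL1A1 and EPCAM) reached the tested set, and 0 were called. CD79A had 41.0, 39.3 and 22.3 CPM with ERG and 27.3, 11.8 and 11.6 CPM with vector (log2 1.02, edgeR adjusted p = 0.263), and it was called with the set term (edgeR adjusted p = 0.00548). COL1A1 and EPCAM stood at most at 8.71 and 2.21 CPM, with log2 differences of -1.26 and -1.04 (edgeR unadjusted p = 0.0148 and 0.0413). The part of these markers in the results below was not tested. The libraries also fell into 2 sets that cut across the groups, ERG 1, ERG 2 and vector 1 against ERG 3, vector 2 and vector 3, and the labels do not say what sets them apart. ERG 1 and ERG 2 differed far less than any other pair of libraries (chi-square per degree of freedom of 2.20, against 21.6 to 86.9 for the other pairs).

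The start of the messenger RNA is shown first because it is the feature most ribosomal protein genes share, and because 2 of the second copies described below, RPS27L and RPL26L1, differ from their parents there. RefSeq start regions (GRCh38.p14, plus or minus strand as annotated) were matched to 65 of the 80 genes. In the following 30-base windows, 10 bases before and 20 bases from the annotated start, capitals mark the unbroken run of C and T that begins at the start.
RPS27: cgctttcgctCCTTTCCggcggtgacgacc
RPS27L: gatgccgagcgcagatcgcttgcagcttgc
RPL22: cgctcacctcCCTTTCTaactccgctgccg
RPL22L1: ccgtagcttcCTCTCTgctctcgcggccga
RPL26: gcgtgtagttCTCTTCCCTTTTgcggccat
RPL26L1: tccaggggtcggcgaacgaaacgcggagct
RPL7L1: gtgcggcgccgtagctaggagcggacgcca
RPS26: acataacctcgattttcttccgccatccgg
RPS12: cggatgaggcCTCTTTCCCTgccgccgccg
RPS14: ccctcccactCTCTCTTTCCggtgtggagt
RPL13A: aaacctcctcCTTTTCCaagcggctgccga
The windows lie at chr1:153990752-153990781 (RPS27, plus strand), chr15:63157458-63157487 (RPS27L, minus), chr1:6199576-6199605 (RPL22, minus) and chr3:170870176-170870205 (RPL22L1, minus). Those of RPL26 and RPL26L1 lie at chr17:8383174-8383203 on the minus strand and chr5:172958719-172958748 on the plus strand, the latter being 1 of 2 annotated starts, neither of which begins with such a run. RPL7L1 is at chr6:42879606-42879635, RPS26 at chr12:56041908-56041937, RPS12 at chr6:132814559-132814588 and RPL13A at chr19:49487598-49487627, all on the plus strand, and RPS14 is at chr5:150449720-150449749 on the minus strand.

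A TOP start, taken as a C at an annotated start with at least 4 further C or T behind it (a run of at least 5), was found for 46 of the 65 genes (70.8%), against 5.14% of the 27305 gene symbols with a start region. RPS27, RPL22 and RPL26 had one, and of the second copies with a start region RPL22L1 had one while RPS27L, RPL26L1 and RPL7L1 had none. RPS26, whose annotated start is a G placed just before a T-rich stretch, also counted as without. The ETS core CCGGAA, searched on both strands (as TTCCGG on the other) in the 300 bases from 250 before to 50 after a start, was in 38 of 65 genes (58.5%), against 20.1% of all symbols. Where a TOP tract ends in TTCCGG the motifs overlap. All symbols here were not limited to genes expressed in these cells, and no share among expressed genes was taken. The median log2 fold change (ERG over vector) was -0.23 for the 46 genes with a TOP start and -0.23 for the 19 without, and it was -0.22 for the 38 genes with the ETS core and -0.24 for the 27 without.

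No ribosomal protein gene was called different between ERG and vector. In edgeR's quasi-likelihood test, 0 of 80 had an adjusted p under 0.05, where 2.2% of all tested genes did, and 1 of 80 (RPS27L) had an unadjusted p under 0.05, where 15.9% did. DESeq2 also called 0 of 80, with 7.08% of all genes called, and limma-voom called 0 of 80, with 1.89% of all genes called. The lowest edgeR adjusted p of a member was 0.185. Every fitted log2 fold change was nonetheless negative, from -0.63 to -0.003, with a median of -0.22. Over all tested genes the median was -0.01 and 51.1% were negative. The median was the same in the large subunit (-0.22 over 48 genes) and the small subunit (-0.22 over 32 genes). These values are shares of each library's RNA, and in bulk samples fewer cells of a type and less RNA per cell cannot be told apart.

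The uniform sign rested on 1 control library. Vector 1 was the highest of the 6 libraries for 70 of 80 members (87.5%), against 21.0% of all tested genes. The members' own rows took 5.11% of all counts in vector 1, against 3.75%, 3.58% and 3.70% in ERG 1, 2 and 3 and 3.40% and 3.79% in vector 2 and vector 3. So vector 1 lay above the other 5 libraries, and these overlapped between the groups: the mean share was 3.68% ± 0.087 (SD, n = 3) with ERG and 4.10% ± 0.896 (SD, n = 3) with vector. Without vector 1 the median log2 fold change of the members was -0.04, with 47 of 80 negative and 33 positive, and that of all genes was 0.00, with 49.8% negative. Vector 1 is also the only vector library in its library set, so every fold change without it mixes group and set. What distinguishes vector 1 was not tested.

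**Figure D1:**
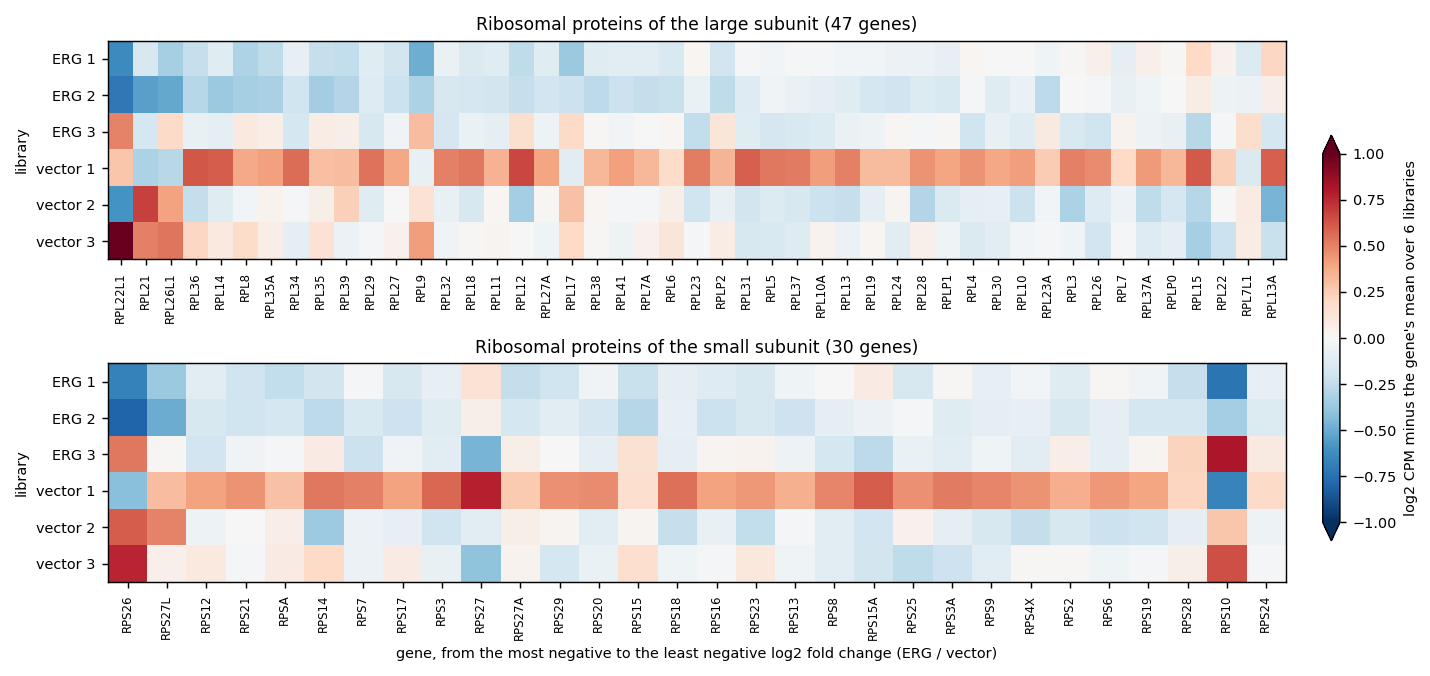
Log2 CPM of 77 of the 80 ribosomal protein genes in each of the 6 libraries (rows), minus the gene's mean over the libraries, with the large subunit above and the small below. Vector 1 is the warm row for most genes, the highest library in 67 of the 77 shown.

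**Figure D2:**
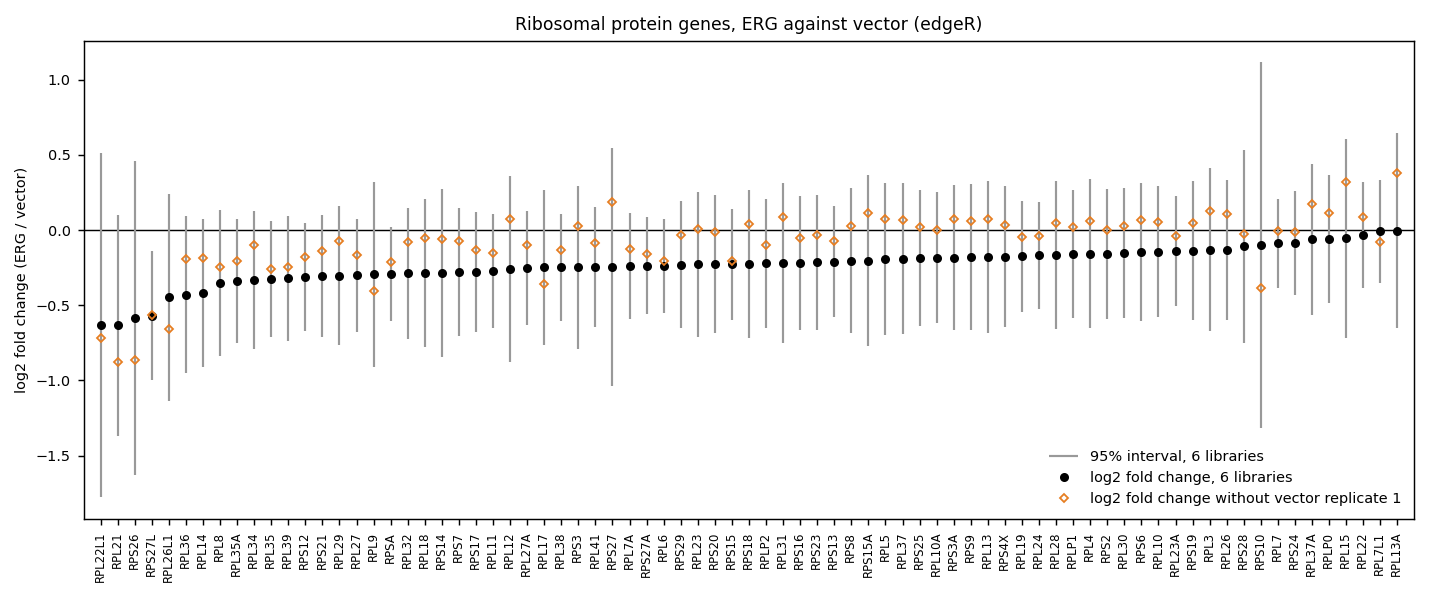
Log2 fold change (ERG over vector) of 77 of the 80 genes, each with its 95% interval over 6 libraries (black points, grey lines), and the fold change without vector replicate 1 (open diamonds). All 77 points lie below 0, while 31 of the diamonds lie above it.

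The precision of the data bounds what could have been missed only if ERG 1 and ERG 2 are separate replicates, as labelled. Those libraries differed far less than any other pair, and the intervals would be too narrow if they were not separate. The 95% interval of the fold change lay within 1 log2 unit of 0 for 74 of 80 genes, and within a 1.5-fold change in either direction for 16 of 80. The lowest bound was -1.78 (RPL22L1) and the highest 1.11 (RPS10). Among the 80 genes only the interval of RPS27L, -0.996 to -0.14, did not include 0.

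By their own rows, 12 genes had all 3 ERG libraries below all 3 vector libraries (15.0%, against 9.54% of all tested genes). In 0 genes all 3 ERG libraries lay above (against 12.3% of all tested genes). Among the 12 were RPL6, RPL11, RPL27, RPL27A, RPL29, RPL38, RPS12, RPS13, RPS21, RPS27L and RPSA. All 12 kept a negative fold change without vector 1, which their order over the libraries already fixes. With pseudogene rows added, the groups overlapped in RPL6, RPS12 and RPS13. RPS12, a small subunit protein, had 223, 216 and 211 CPM with ERG and 318, 233 and 257 CPM with vector. Its log2 fold change was -0.31 (SE 0.15, edgeR adjusted p = 0.378), so a lower level in ERG was ordered in its own row but not called. With pseudogene rows, which held 44.7% of its reads, RPS12 had 386, 367 and 426 CPM with ERG. With vector that sum was 585, 405 and 464 CPM, so ERG 3 lay above vector 2. RPSA, a small subunit protein also known as the laminin receptor precursor, had 121, 127 and 141 CPM with ERG and 175, 149 and 151 CPM with vector (log2 -0.29, SE 0.13, edgeR adjusted p = 0.341). In the own rows of both genes the groups lay close to each other. The gap was smaller than the distance from vector 1 to the next vector library.

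A term for the library sets, added to the same fit, let 2 of 80 members pass, both lower with ERG, where 13.2% of all tested genes passed and 5.96% passed as lower. They were RPS12 (log2 -0.38, edgeR adjusted p = 0.0359) and RPS27L (log2 -0.51, edgeR adjusted p = 0.0453). RPS12 did not pass with its pseudogene rows added (edgeR adjusted p = 0.137). The sets are known from these same data and are no group of the study. With that term the median of the members was -0.26.

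The members listed as mutated in Diamond-Blackfan anaemia had a median close to that of the 80 genes. Of 18 such genes 0 were called, against 2.2% of all tested genes, and 15 were highest in vector 1, against 21.0%. Their median log2 fold change was -0.24, or -0.04 without vector 1. RPS19, the gene most often mutated in that disease, stood at 1117, 1017 and 1171 CPM with ERG and 1503, 999.99 and 1134 CPM with vector (log2 -0.14, SE 0.20, edgeR adjusted p = 0.762). Here the lowest of all 6 libraries was vector 2, so the groups overlapped fully. RPS14, of the small subunit platform, had 419.9, 398 and 505 CPM with ERG and 689.7, 371 and 549 CPM with vector (log2 -0.28, SE 0.24, edgeR adjusted p = 0.603). Again vector 2 was lowest and vector 1 highest.

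RPL5 and RPL11 bind the 5S ribosomal RNA, and outside the ribosome they hold back MDM2, the ligase that degrades p53. RPL5 had 677, 674 and 616 CPM with ERG and 996, 627 and 621 CPM with vector (log2 -0.19, SE 0.22, edgeR adjusted p = 0.703), and without vector 1 the difference was 0.07. RPL11 had 828, 795 and 849 CPM with ERG and 1150.4, 913 and 918 CPM with vector (log2 -0.27, SE 0.16, edgeR adjusted p = 0.467). The groups overlapped for RPL5 and did not for RPL11, where the difference without vector 1 was -0.15.

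The stalk of the large subunit, which recruits elongation factors, is built from RPLP0, RPLP1 and RPLP2. RPLP0, its base, stood at 888, 880.5 and 834 CPM with ERG and 1107, 782 and 822 CPM with vector (log2 -0.06, SE 0.18). RPLP1 and RPLP2, which bind to it as dimers, had log2 differences of -0.16 (SE 0.18) and -0.22 (SE 0.18). Of the 3 stalk genes 0 were called and 3 were highest in vector 1, against 2.2% and 21.0% of all tested genes.

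Among the members with the largest counts were RPL8, RPL4, RPS3 and RPS16. RPL8, a protein near the catalytic centre of the large subunit, had 1574, 1548 and 2086 CPM with ERG and 2530.3, 1914 and 2204 CPM with vector (log2 -0.35, SE 0.21, edgeR adjusted p = 0.460). RPS3, which lines the entry of the messenger RNA channel, had 1293, 1265 and 1276 CPM with ERG and 2048, 1197 and 1307 CPM with vector (log2 -0.25, SE 0.23, edgeR adjusted p = 0.638). In RPS3 the 5 libraries other than vector 1 lay between 1197 and 1307 CPM. RPL36, a large subunit protein with the most negative difference after RPL21, RPS26 and the second copies RPL22L1, RPS27L and RPL26L1, had 344, 330.4 and 384 CPM with ERG and 619.5, 342 and 466 CPM with vector (log2 -0.43, SE 0.22, edgeR adjusted p = 0.401). RPL15, a large subunit protein near the other end, had 645, 591 and 464 CPM with ERG and 859, 461 and 446 CPM with vector (log2 -0.05, SE 0.28, edgeR adjusted p = 0.940), and without vector 1 its difference was 0.32. RPL37A was similar, with a log2 difference of -0.06 (SE 0.22) that became 0.17 without vector 1.

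Levels between genes were compared as CPM per kilobase of coding sequence, with the reads of pseudogene rows added to their parent. Without the second copies, 76 genes ranged from 353 (RPL12) to 9299 (RPL41, whose coding sequence is only 75 bases), with quartiles of 1103 and 2063. The next highest were RPL13A at 4692 and RPL37A at 4632. The medians of the large and small subunit genes were 1556 and 1413. The lengths were those of the shortest principal GENCODE 29 transcript, so that they leave out untranslated parts of the message, which weigh most in the shortest genes.

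Second copies are diverged genes that encode a protein close to a ribosomal protein, and 4 of the 7 listed here were members: RPL7L1, RPL22L1, RPL26L1 and RPS27L. Per kilobase of coding sequence they stood at 355, 79.5, 21.9 and 257 CPM. Their parents stood at 2418 (RPL7), 1464 (RPL22), 620 (RPL26) and 2285 (RPS27). In the highest library each second copy reached 17.7% (RPL7L1), 11.3% (RPL22L1), 5.49% (RPL26L1) and 18.0% (RPS27L) of its parent's family counts. Vector 1 was the highest library for all 7 listed parents and for 0 of the 4 second copies.

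RPS27L, which is known as a p53 target, had 48.6, 44.6 and 63.3 CPM with ERG and 78.2, 88.8 and 65.3 CPM with vector. Every ERG library lay below every vector library, though ERG 3 and vector 3 nearly met. The log2 fold change was -0.57 (SE 0.18, edgeR adjusted p = 0.185), and without vector 1 it was -0.56. RPS27L was the 1 member with an unadjusted p under 0.05. DESeq2 gave an adjusted p of 0.0769 and limma-voom 0.182. Its parent RPS27, with pseudogene rows added, had 580, 515 and 491 CPM with ERG and 869, 493 and 508 CPM with vector, where only vector 1 stood out.

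RPL22L1 varied more than any other member. It had 16.5, 15.6 and 36.1 CPM with ERG and 31.1, 17.0 and 58.2 CPM with vector, a pattern followed by neither the groups nor the library sets, with vector 2 beside ERG 1 and ERG 2. Its log2 fold change was -0.63 (SE 0.49, edgeR adjusted p = 0.572). RPL22, the parent, ranged only from 185 to 254 CPM in its own row. RPL26L1 had 7.27, 6.44 and 10.5 CPM with ERG and 7.57, 12.1 and 13.3 CPM with vector (log2 -0.45, SE 0.30, edgeR adjusted p = 0.506), so vector 1 sat with ERG 1 and ERG 2. RPL7L1, which is known to act in the assembly of the large subunit, was nearly flat, at 246, 259.6 and 306 CPM with ERG and 245, 287 and 284 CPM with vector (log2 -0.01, SE 0.15, edgeR adjusted p = 0.985).

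RPS26, a small subunit protein at the exit of the messenger RNA channel, followed the library sets. Its own row held 5.16, 4.73 and 11.9 CPM with ERG and 6.16, 12.6 and 14.0 CPM with vector. Of the reads in all rows that carry its name, 96.2% were in 6 pseudogene rows. RPS26P25 alone held 84.5% of them. With those rows added it had 136, 130 and 323 CPM with ERG and 145, 335 and 378 CPM with vector. ERG 3, vector 2 and vector 3 were all at least 2.23 times as high as the other 3 libraries. The groups overlapped, and the log2 fold change of the sum was -0.54 (edgeR adjusted p = 0.599). Each of the 6 pseudogene rows was lower in ERG 1, ERG 2 and vector 1 than in the other 3 libraries. Among members that are not second copies RPS26 had the widest spread. The SD of its log2 level over the libraries was 0.74, against 0.77 for RPL22L1, 0.43 for RPL26L1 and 0.38 for RPS27L.

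**Figure D3:**
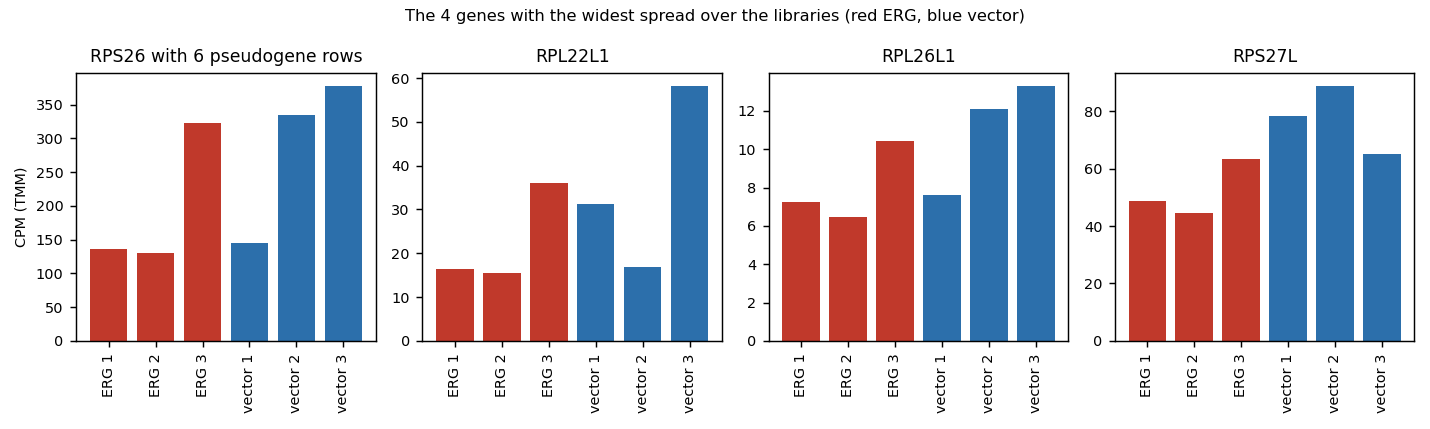
CPM in each library (bars, ERG in red and vector in blue) for the 4 members with the widest spread, with the pseudogene rows added for RPS26. RPS26 stands at 323 to 378 CPM in ERG 3, vector 2 and vector 3 and at 130 to 145 in the others, while RPS27L is lower in each ERG library than in each vector library.

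A large part of the ribosomal protein reads stood in pseudogene rows. Processed pseudogenes are copies of a spliced messenger RNA put back into the genome, so their reads can hardly be told from those of the parent, and no source used here gives how reads that match several places were counted. The table held 237 rows named for ribosomal protein pseudogenes, of which 235 carried the name of a member, spread over 67 members. Together they had 1979457 counts against 2964018 in the members' own rows, or 40.0% of the sum. For 28 members the pseudogene rows held more counts than the gene itself, and for 10 they held over 90%. Among these were RPS10 (99.5%), RPS28 (98.7%), RPL9 (98.6%), RPL21 (98.3%), RPL17 (98.1%), RPS27 (98.0%), RPL7 (96.6%), RPS26 (96.2%) and RPL39 (93.4%). RPL36A had no row of its own, while 45003 counts stood in rows of its pseudogenes.

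The largest counts in pseudogene rows were those of RPL13A, RPS2, RPL7, RPS3A and RPLP0. RPL13A had 22018 counts in its own row and 195747 in pseudogene rows. RPL13A also had the log2 fold change nearest to 0 (-0.003, SE 0.28), and with pseudogene rows added it was -0.05. At the other end RPL8 and RPL11 had hardly any or no reads in such rows.

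The own rows of these genes lay far below the sums with their pseudogene rows. RPS10, a small subunit protein, read 1.10, 1.44 and 3.19 CPM with ERG and 1.14, 2.21 and 2.84 CPM with vector in its own row. With pseudogene rows it was 391, 352 and 431 CPM with ERG and 547, 429.9 and 442 CPM with vector. RPL21 had the most negative fold change among genes other than second copies, with 5.005, 3.84 and 4.96 CPM with ERG and 4.49, 8.99 and 7.93 CPM with vector in its own row (log2 -0.63, SE 0.32, edgeR adjusted p = 0.383). Its sum was 317, 294 and 338 CPM with ERG and 454, 363 and 334 CPM with vector (log2 -0.28, edgeR adjusted p = 0.452). Thus the order of its libraries changed once the pseudogene rows were added, and vector 1 became the highest.

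Adding the pseudogene rows brought no call among the 80 genes. Of the 10 members not highest in vector 1 by their own rows, 4 were the second copies and 6 had over 90% of their reads in pseudogene rows. After summing, vector 1 was highest for 74 of 80, and the 6 exceptions were RPL7L1, RPL22L1, RPL26L1, RPS27L, RPS26 and RPS15. In the sums 0 of 80 were called by edgeR and the median log2 fold change was -0.22, or -0.03 without vector 1. With the library set term 1 of 80 was called (RPS27L, edgeR adjusted p = 0.0432), where 13.5% of all rows were. Of the 209 pseudogene rows tested by themselves 0 were called by edgeR, against 2.2% of all tested genes. An unadjusted p under 0.05 was reached by 4, against 15.9%. With the library set term 5 were called, all lower with ERG, where 13.2% of all tested genes were called and 5.96% as lower.

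**Figure D4:**
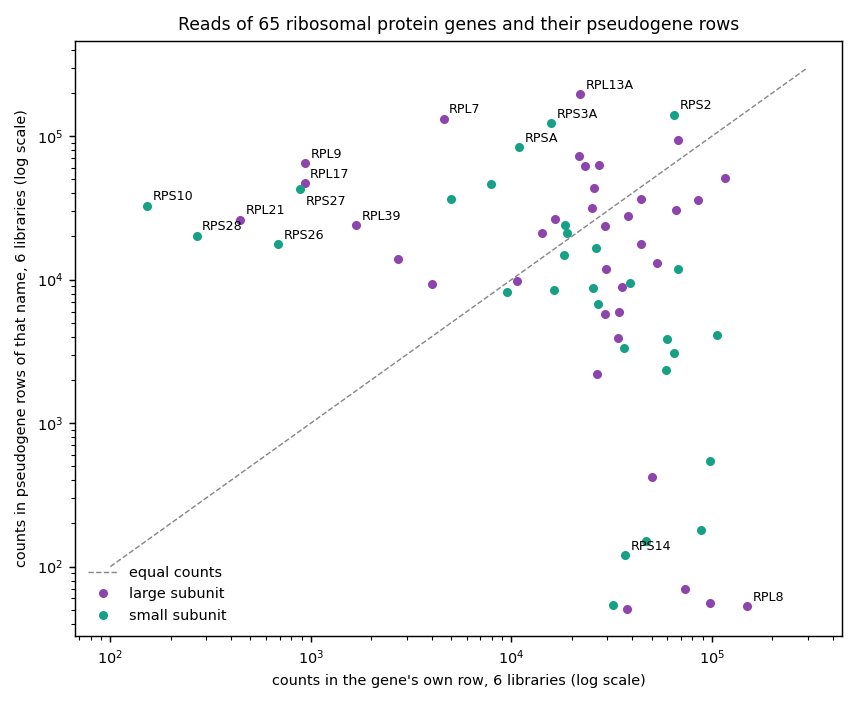
Counts over 6 libraries in each gene's own row (x axis) and in the pseudogene rows of its name (y axis), both on log scales, for 65 of the 67 genes that have such rows. The 27 genes above the dashed line of equal counts, RPS10 and RPL13A among them, have more reads in pseudogene rows.

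The genes that assemble ribosomes had another order of libraries than the ribosomal proteins. Averaged over the members, log2 CPM relative to each gene's mean was -0.12, -0.18 and -0.02 in ERG 1, 2 and 3 and 0.36, -0.07 and 0.02 in vector 1, 2 and 3. For 32 factors of small subunit assembly the same measure was -0.37, -0.39 and 0.30 with ERG and -0.28, 0.34 and 0.40 with vector. So vector 1 was the top library of the ribosomal proteins and among the low ones of the assembly factors. It was the highest library for 0 of the 32 small subunit factors, 4 of 40 large subunit factors and 2 of 15 RNA polymerase I genes. Over all tested genes this share was 21.0%. The median log2 fold changes of these lists were -0.30, -0.28 and -0.19, and 0 genes of each were called, against 2.2% of all tested genes. With the library set term 2 of 32, 2 of 40 and 0 of 15 were called lower and 0 higher. Of all tested genes 5.96% were called lower with that term. Without vector 1 the medians were -0.53, -0.42 and -0.32, but the vector libraries then left are all in the set of ERG 3. Those values therefore mix group and library set. NCL, encoding the nucleolar protein nucleolin, had 1252, 1255 and 2249 CPM with ERG and 1133, 2313 and 2213 CPM with vector. NPM1, encoding nucleophosmin, had 361, 338 and 539 CPM with ERG and 468, 521 and 609.9 CPM with vector, and the groups overlapped for both. The log2 fold changes of NCL and NPM1 were -0.51 and -0.45 without vector 1, and 0.07 and -0.25 with the library set term.

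The 78 mitochondrial ribosomal protein genes had 0 called (against 2.2% of all tested genes), 77 negative (against 51.1%) and a median log2 fold change of -0.30. Without vector 1, where group and library set are mixed, this median was -0.37 and that of the cytoplasmic ribosomal proteins was -0.04. Vector 1 was the highest library for 18 of the 78, against 21.0% of all tested genes. With the library set term 7 of the 78 were called, all lower with ERG, where 5.96% of all tested genes were called as lower. MRPL4, of the mitochondrial large subunit, had 181, 176 and 298 CPM with ERG and 216, 313 and 325 CPM with vector (log2 -0.39, SE 0.26, edgeR adjusted p = 0.510), and its groups overlapped. MRPL37, of the same subunit, had 133, 135 and 148 CPM with ERG and 174, 165 and 169 CPM with vector (log2 -0.29, SE 0.12, edgeR adjusted p = 0.296).

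The translation factors resembled the ribosomal proteins: 17 of 20 were highest in vector 1 (against 21.0% of all tested genes) and 0 were called (against 2.2%). Their median log2 fold change was -0.13, or 0.00 without vector 1. EEF1A1, the elongation factor that brings transfer RNA to the ribosome and whose message also begins with a TOP tract, had 2315, 2279 and 2129 CPM with ERG and 3123, 1949.8 and 2211 CPM with vector. The 9 genes listed here as ribosomal protein chaperones, which include NACA and NAP1L1, had a median of -0.22 and 0 called, but another order of libraries. Of them 2 were highest in vector 1, near the share of all tested genes (21.0%), and without vector 1 the median was -0.21. Their mean log2 CPM relative to each gene's mean was -0.24, -0.27 and 0.24 with ERG and -0.11, 0.13 and 0.25 with vector.

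**Figure D5:**
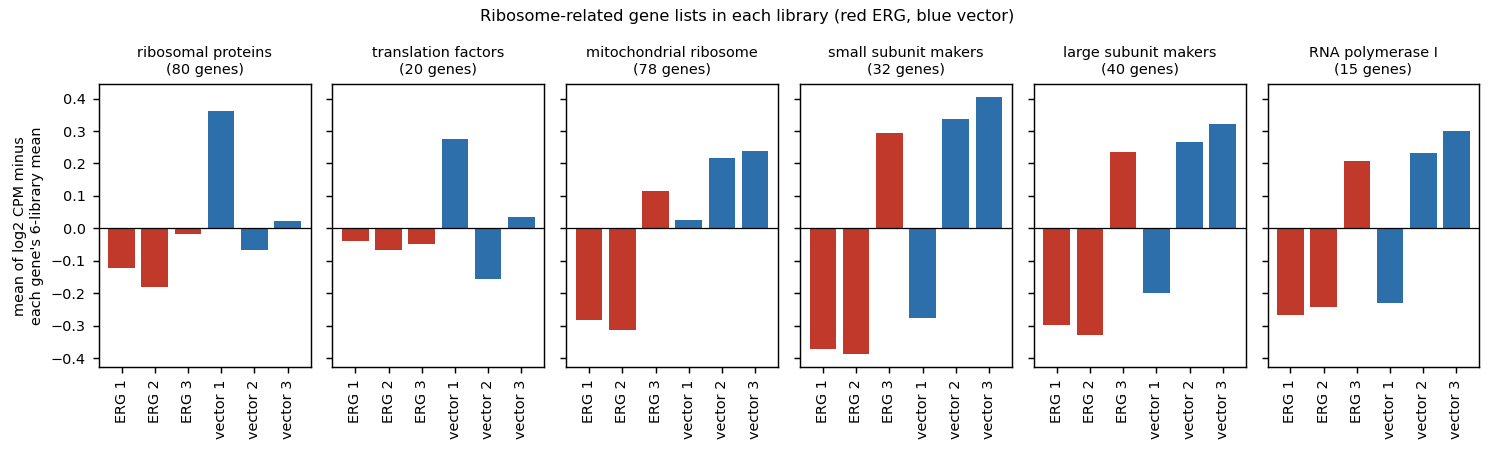
Mean over the genes of 6 lists of log2 CPM minus each gene's mean over the libraries, by library (bars, ERG in red and vector in blue). Ribosomal proteins and translation factors peak in vector 1, while the assembly and RNA polymerase I lists are lowest in ERG 1, ERG 2 and vector 1.

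Of 18 tested regulators of ribosome synthesis 0 were called (against 2.2% of all tested genes), with a median log2 fold change of -0.06. MYC, a transcription factor known to raise ribosome synthesis, had 682, 666 and 701 CPM with ERG and 1036, 844 and 902 CPM with vector. All ERG libraries lay below all vector libraries, and the log2 fold change was -0.44 (SE 0.15, edgeR adjusted p = 0.211). With the library set term it was -0.47 (edgeR adjusted p = 0.0175), and without vector 1 it was -0.36. LARP1, the TOP-binding repressor, had a log2 fold change of 0.01 (SE 0.20, edgeR adjusted p = 0.979).

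The genes outside the group whose log2 CPM over the 6 libraries was most like the members' mean were COPZ1, LAMTOR2, POLR2G, LMAN2 and ZNF581, among 10907 genes compared. Their Pearson r was 0.995, 0.990, 0.986, 0.986 and 0.984, over 6 libraries. All 5 were highest in vector 1, for example COPZ1, a coatomer subunit, at 122 CPM there and 86.7 to 102 CPM elsewhere. Leaving out vector 1 and ERG 2, the libraries farthest from the median of the members' mean, r was 0.971, 0.915, 0.893, 0.872 and 0.968. Those values rest on ERG 1, ERG 3, vector 2 and vector 3 alone. The 5 genes were picked by their r in these same libraries, so all these values are a description and no test.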

How the data were processed

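The authors deposited a table of read counts per gene for 3 ERG and 3 vector libraries, in whole numbers with unequal totals, although its name speaks of CPM. The submitters' processing notes list hg38 and edgeR 3.32.1, and per the labels' protocols messenger RNA was caught on poly-T beads and copied from random hexamers. The aligner, the counter and the strand setting are not given in the sources used here. Control columns were given to the vector samples as the only other group, and 0 columns went unused.

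Counts of all genes reaching 1 CPM in 3 or more libraries were fitted with edgeR 4.0.16 (R 4.3.3): TMM, quasi-likelihood test, two-sided, Benjamini-Hochberg over all tested genes, threshold 0.05. The SE is the size of the log2 fold change over the square root of F, and intervals are 95%. DESeq2 1.42.0 and limma 3.58.1 voom were alternatives. Rows whose names extend a member's by P and a number were taken as its pseudogene rows and summed for the family values. The script was tested on simulated data. Coordinates and coding lengths come from GENCODE 29, start regions from RefSeq.

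The members and lists were chosen with earlier results of these data known. Genes named are the 6 highest and 6 lowest log2 fold changes, the 5 highest and 5 lowest by CPM, RPLP0, RPLP1, RPLP2, RPSA, second copies with parents, RPS19, RPS14, RPL5, RPL11, the 5 with the most pseudogene counts, and from other lists up to 4 called genes or the 2 highest. Other genes were named after their values were seen: RPS12, RPS15, RPL12, RPL41 and those over 90% in pseudogene rows. The same holds for RPL6, RPL27, RPL27A, RPL29, RPL38, RPS13 and RPS21, named for the order of their libraries. A few genes are left unnamed and out of the figures, but stay in every count and median. A gene on the Y chromosome was not used. ERG 1 and ERG 2 were counted as 2 replicates, as labelled. Their counts differed by more than counting noise, which does not show that they came from separate cultures, and summing them is 1 of the alternatives.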

Additional observations from a re-analysis of the deposited data

How the results depend on the processing

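The median log2 fold change of the ribosomal protein genes was negative under all settings run. It lay at -0.31 to -0.041 when each library was left out in turn, the value nearest 0 being that without vector 1, and at -0.034 without vector 1 after adding the pseudogene rows, an alternative chosen after seeing the data. Calls among the 80 genes were 0 under all settings but the library set term (2) and the same term after adding pseudogene rows (1, also chosen after seeing the data). Over all genes 313 were called. DESeq2 called 1006, the library set term 1869, and that term with pseudogene rows added 1893. With ERG 1 and ERG 2 summed as 1 library edgeR called 0, with 1277 genes at an unadjusted p under 0.05. Leaving out 1 library gave 0 to 441 calls: 0 without ERG 1 or without ERG 2 (1278 and 1256 at an unadjusted p under 0.05), 19 without vector 2 and 51 without vector 3. The cause of these changes was not tested. The labels state no pairing by replicate number. Correlations of deviations between ERG and vector libraries of the same number were 0.63, -0.28 and 0.59. They cannot decide on pairing, since ERG 2 and vector 2 lie in different library sets and the other same-number libraries share a set. With the replicate number as a block 905 genes and 0 of the 80 were called. Of 620 values of the 31 genes named by rule under the alternatives, 54 had the other sign, and RPS27L alone crossed the threshold, both times with the library set term. Depth limits the members with few counts in their own rows, and 8 of 80 had a mean under 20 CPM.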
